A study of Mus musculus with 6 samples.

Results

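The genes described here belong to families of enzymes that write or erase marks on histones. They are lysine demethylases (Kdm), deacetylases (Hdac), lysine acetyltransferases (Kat) and arginine methyltransferases (Prmt). The SET domain genes Setd2 to Setd7 and the Polycomb methyltransferases Ezh1 and Ezh2 are included. Some members are known for other substrates, such as Hdac6 for tubulin and Prmt3 for a ribosomal protein. Members were chosen by symbol alone, which gave 52 of the 23282 genes in the count files. They were 17 demethylases, 11 deacetylases, 8 acetyltransferases, 8 arginine methyltransferases, 6 SET domain genes and 2 Polycomb methyltransferases. Kdm6a was left out of the rule. The gene formerly called Setd8 is listed as Kmt5a in the name table, so it is not a member.

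Acetyl groups on histone tails are added by acetyltransferases and removed by deacetylases, and acetylated chromatin is usually open to transcription. Methyl groups carry a meaning that depends on the residue. Methylation of lysine 4 of histone H3 (H3K4) marks promoters and enhancers, that of lysine 27 (H3K27) marks Polycomb-silenced genes, and demethylases remove these marks residue by residue. Mll4, also named Kmt2d, is an H3K4 methyltransferase that acts at enhancers. Several of these enzymes are known to matter in leukaemia with MLL fusions, among them the demethylase Kdm1a (LSD1) and the Polycomb enzyme Ezh2.

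The study sequenced RNA of mouse blood-forming cells of a mixed 129/Sv x C57BL/6 background, as 9 libraries from 6 samples. LSK cells are marrow cells without lineage markers that carry Sca1 and c-Kit. They were sorted at 2 months of age from littermates treated with polyIC, and both genotypes carried MxCre, an interferon-driven Cre active in blood cells and other tissues. One LSK library came from MLL4f/f MxCre+ cells, called Mll4 deleted, and the other from WT MxCre+ cells, and each was amplified from about 50 picked cells. The other 7 libraries came from whole bone marrow transformed with the retroviral leukaemia oncogene MLL-AF9 and grown for 14 days. In the Mll4 deleted pair, Mll4f/f cells received a second retrovirus carrying Cre, and in the Mll4 intact pair Mll4f/f cells received the same vector without Cre. Cells carrying both fluorescent markers were sorted 5 days after that infection, so Cre and deletion cannot be told apart. The protocol gives MxCre marrow as the source of these cells too. In a separate transformation, marrow labelled MLL4-/- received MLL-AF9-neo together with either FOXO3-IRES-GFP (2 libraries) or an empty vector, EV (1 library), and GFP+ cells were sorted after G418 selection. The FOXO3 and EV groups are therefore both Mll4-null by their labels.

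Totals ran from 25895041 to 61950773 counts per library. The targeted gene Kmt2d was counted at 93.3 and 72.3 CPM (counts scaled by the library total and the TMM factor) in the deleted pair, against 89.4 and 77.4 CPM in the intact pair. In LSK cells, in CPM by the library total alone, it stood at 13.9 CPM in the Mll4 deleted library and at 1.88 CPM in the wild type library, against the label. These counts cover the whole gene and do not check the loss of exons, so groups are called by their labels. Xist and Y-linked genes showed that each Mll4 pair held 1 female and 1 male library: female first in the deleted pair, male first in the intact pair. The FOXO3 and EV libraries were male. The FOXO3 pair differed by a chi-square per degree of freedom of 1.97, against 191 and 146 in the deleted and intact pairs, so it is close to a technical repeat. Counts of calls are therefore also given after adding the pair up to 1 library. The labels do not say whether separate cultures stand behind a pair. Their opposite sex shows that the libraries of each Mll4 pair came from different animals, so the spread there is not technical alone. In the FOXO3 pair it could be. The p-values draw on both kinds of spread. All levels of MLL-AF9 libraries are on that TMM scale, and fold changes are on the log2 scale with SE. In pooled cells, fewer cells of a type and less RNA per cell cannot be told apart.

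Levels were compared between members per kb of exon, as the median of TMM-scaled CPM per kb over the 7 MLL-AF9 libraries. Hdac1, the catalytic subunit of several corepressor complexes, led at 52.6 CPM per kb, with a range of 28.4 to 75.6. Prmt1, the main enzyme for asymmetric arginine dimethylation, followed at 36.4 CPM per kb, with a range of 15.3 to 60.0. Hdac3 and Hdac2, also class I deacetylases, came next at 21.5 and 21.3 CPM per kb, and their ranges of 14.2 to 25.4 and 12.3 to 30.3 overlapped. Hdac9, Kdm4d and Prmt8 closed the order at 0.0759, 0.0349 and 0 CPM per kb. Prmt8 was counted in a single MLL-AF9 library, EV, at 0.0352 CPM, and was the only member that did not pass the expression filter, so 51 members were tested. Summed over the class, the arginine methyltransferases stood at 310 and 316 CPM in the deleted libraries and 215 and 244 CPM in the intact ones. Deacetylases stood at 485 and 489 CPM in the deleted pair, against 369 and 361 CPM in the intact pair. In both class sums the 2 deleted libraries lay above the 2 intact ones, while the summed demethylases overlapped, at 899 and 833 CPM against 987 and 828 CPM. Such sums lean on abundant members, such as Prmt1 and Hdac1, and neither class moved as a whole. Of the 7 arginine methyltransferases tested, 3 had both deleted libraries above both intact ones and 3 had both below. Of the 11 deacetylases, 5 lay above and 2 below (all genes 26.9% above and 30% below).

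**Figure D1:**
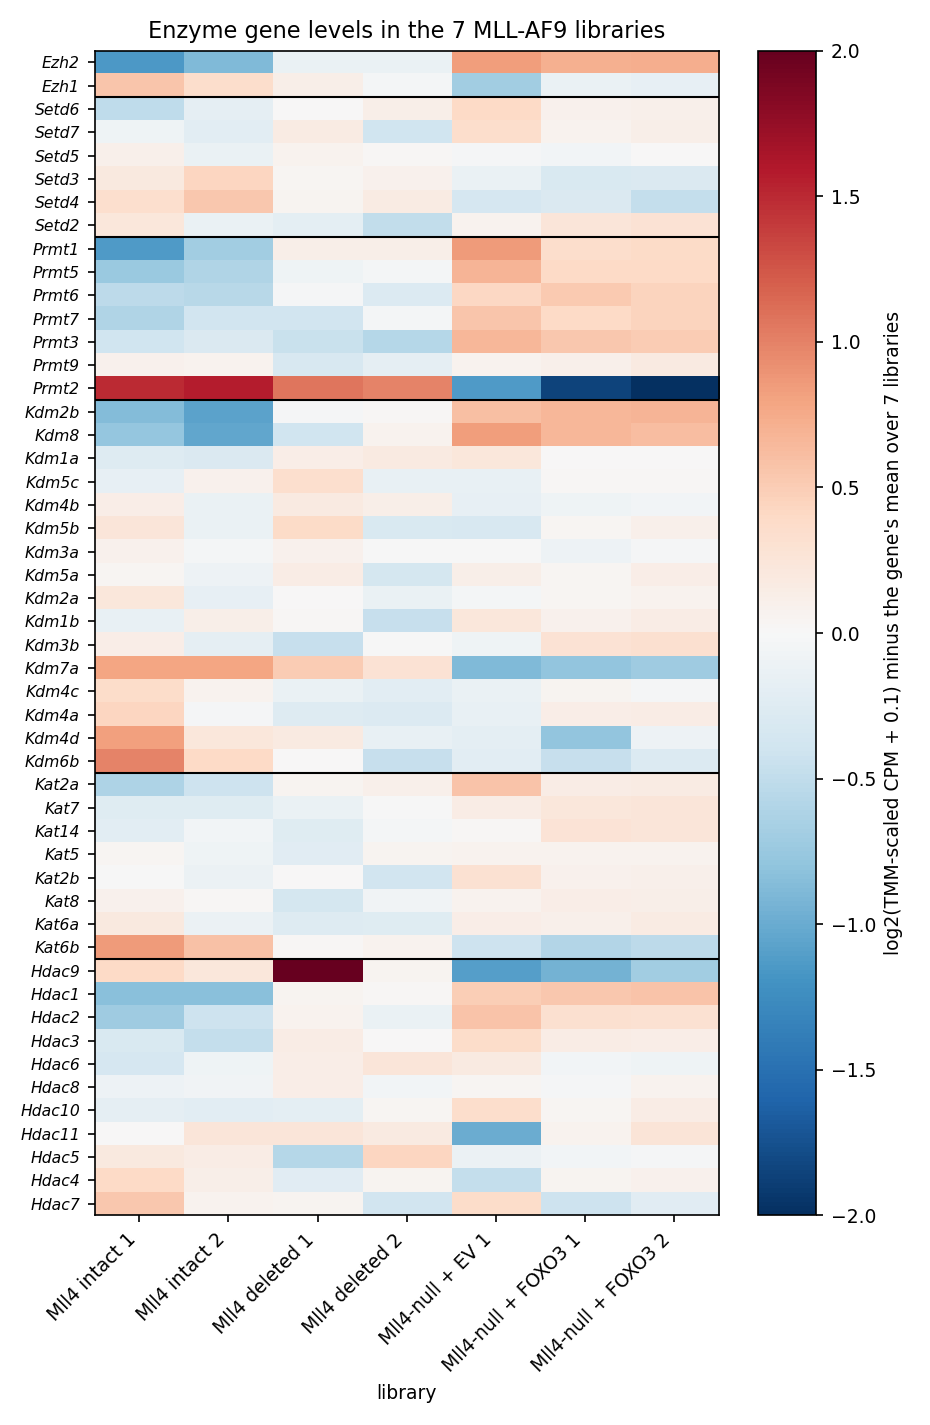
Levels of 50 members (rows, by class) in the 7 MLL-AF9 libraries (columns). Colour gives log2(TMM-scaled CPM + 0.1) minus the gene's mean over the libraries. Prmt8 and the Y-linked Kdm5d are left out. Hdac1, Ezh2, Kdm2b and Prmt1 are lowest in the intact pair, and Prmt2 and Kdm7a are low in the 3 Mll4-null libraries.

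After Mll4 loss, 8 members rose and 1 fell in MLL-AF9 cells. Those that rose were the deacetylases Hdac1 and Hdac3, the demethylases Kdm2b and Kdm1a, the Polycomb enzyme Ezh2, the arginine methyltransferases Prmt1 and Prmt5, and the acetyltransferase Kat2a. The acetyltransferase Kat6b fell. Folds among them ran from 1.36 to 2.03. With edgeR (quasi-likelihood, p-values adjusted by Benjamini-Hochberg over all genes), 17.6% of the 51 tested members were called, against 14.9% of all 14997 genes. Higher calls made up 15.7% of the members against 7.97% of all genes, and lower calls 1.96% against 6.94%. The median log2 fold change was −0.01 over the members and −0.03 over all genes, with 25 members above 0 and 26 below. In 15 members both deleted libraries lay above both intact ones (29.4%, all genes 26.9%), and in 17 both lay below (33.3%, all genes 30%), both shares near the background.

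The calls depended on the FOXO3 pair, which enters the shared estimate of the spread. With that pair summed into 1 library, 1 member was called, Kdm2b, at an edgeR adjusted p of 0.0484, against 2.08% of all genes (1.23% higher, 0.854% lower). The other 8 called members then had adjusted p-values from 0.0526 to 0.18. Leaving out either FOXO3 library also left Kdm2b as the single call, and a fit on the 4 compared libraries alone called none, with 12 of 50 members and 3498 of 14146 genes at an unadjusted p under 0.05. DESeq2 called 15 members, 11 higher and 4 lower (29.4% of members, 24.6% of all genes). Scaling by total counts alone moved the median of all genes from −0.03 to 0.24 and gave 15 higher members and 0 lower, with 23.6% of all genes called.

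**Figure D2:**
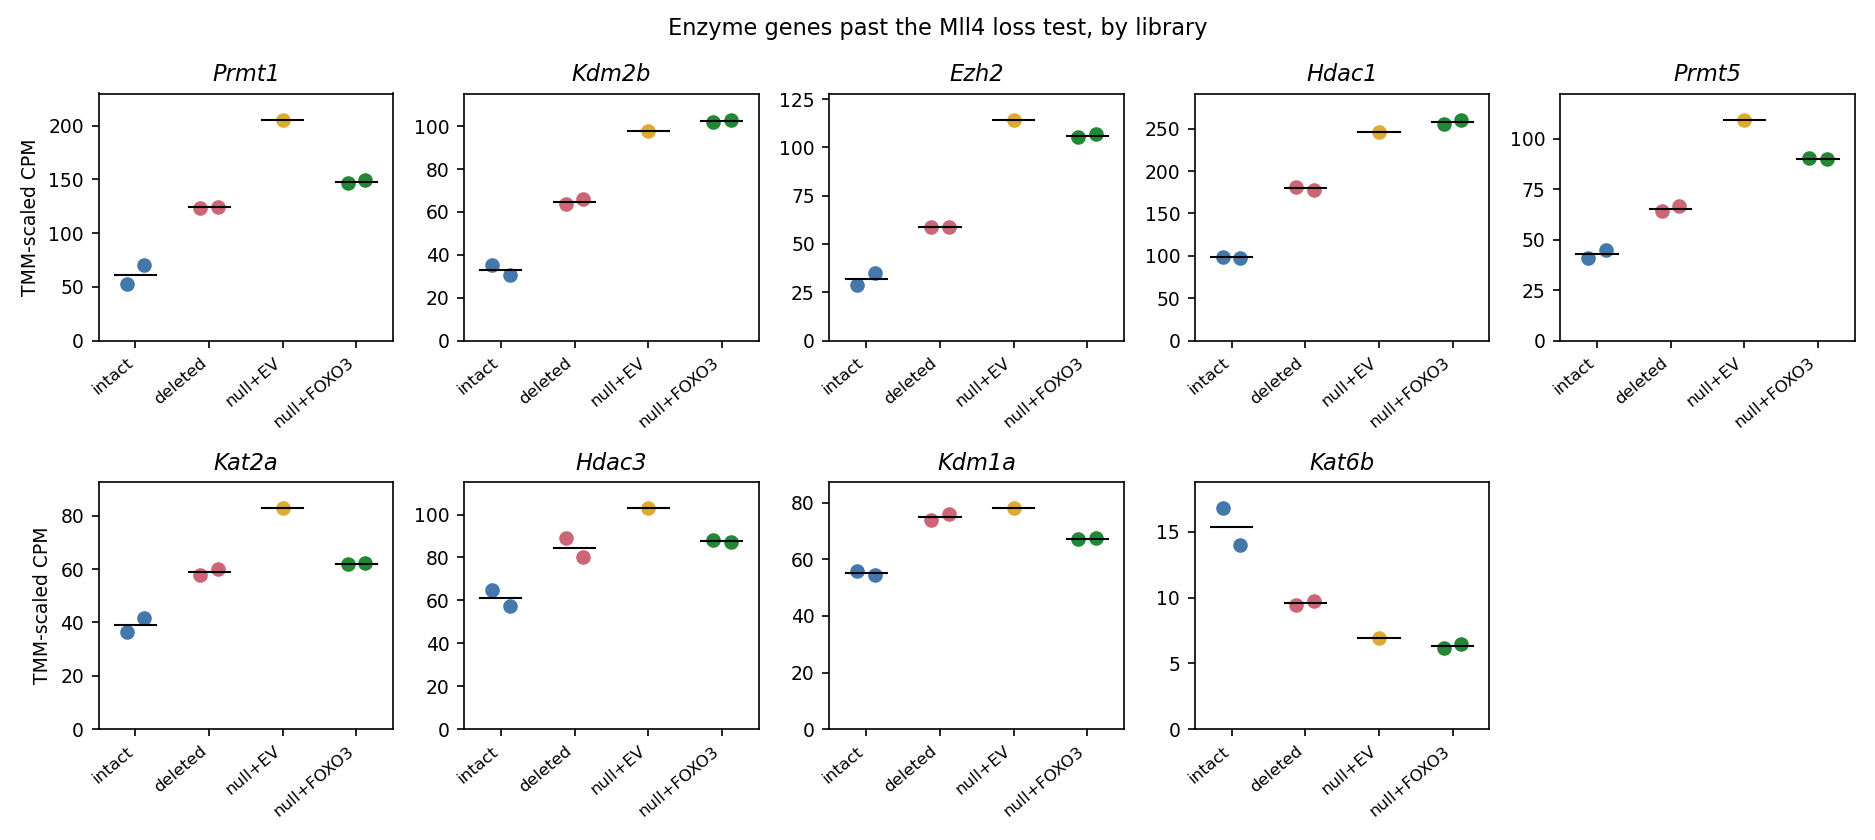
TMM-scaled CPM (vertical axis, from 0) of the 9 members past the Mll4 loss test in each of the 7 MLL-AF9 libraries. Points are libraries and bars are group means. In 8 genes both deleted libraries lie above both intact ones, and in Kat6b below.

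Among the Polycomb enzymes, Ezh2 and Ezh1 are alternative catalytic subunits of PRC2, which methylates H3K27. Ezh2 is known to be prominent in dividing cells and Ezh1 in resting ones. Ezh2 stood at 58.6 and 58.8 CPM in the deleted libraries and at 29.0 and 35.0 CPM in the intact ones. It stood at 105 and 107 CPM with FOXO3 and at 114 CPM with EV. The groups did not overlap, and the Mll4-null libraries were the highest. Ezh2 rose by a log2 fold change of 0.88 ± 0.12 after Mll4 loss (edgeR adjusted p = 0.0141). That call was lost with the FOXO3 pair summed. Ezh1 stood at 39.4 and 35.4 CPM in the deleted libraries and 53.4 and 46.3 CPM in the intact ones. Both deleted libraries lay below both intact ones, but its log2 fold change of −0.42 ± 0.12 did not pass the test (edgeR adjusted p = 0.0719). Per kb of exon, the ratio of Ezh2 to Ezh1 was 0.605 and 0.841 in the intact libraries and 1.66 and 1.85 in the deleted ones. It reached 3.56 and 3.66 under FOXO3 and 5.7 under EV. Ezh2 thus exceeded Ezh1 in each MLL-AF9 library without Mll4 by label and in neither intact library. This ratio was chosen after its values were seen and carries no test.

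Promoter windows were searched for letters of E2F type. E2F factors are known to act on genes of dividing cells. The letters TTTCCCGC, TTTGGCGC, TTTCGCGC and TTTGCCGC were searched on both strands, from 250 bases before to 50 after each start. Of the 52 members, 43 had an entry in the RefSeq promoter table of GRCm38.p6, and 2 of these held a match, against 2.6% of the 27025 genes with an entry. A count of 2 is too small to read against that share. The 2 genes, Ezh2 and Kat2a, are shown with the matched letters in capitals. The Ezh2 window lies on the minus strand at chr6:47594981-47595280 and holds TTTGGCGC itself. The Kat2a window lies on the minus strand at chr11:100712418-100712717 and holds GCGGCAAA, the reverse complement of TTTGCCGC. The windows, 5′ to 3′, read as follows.
Ezh2: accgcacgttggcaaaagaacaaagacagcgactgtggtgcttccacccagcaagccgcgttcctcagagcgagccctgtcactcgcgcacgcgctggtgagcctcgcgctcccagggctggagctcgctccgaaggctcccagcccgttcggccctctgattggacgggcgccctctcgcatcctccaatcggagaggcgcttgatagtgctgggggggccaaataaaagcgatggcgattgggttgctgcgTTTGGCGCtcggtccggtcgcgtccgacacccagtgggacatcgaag
Kat2a: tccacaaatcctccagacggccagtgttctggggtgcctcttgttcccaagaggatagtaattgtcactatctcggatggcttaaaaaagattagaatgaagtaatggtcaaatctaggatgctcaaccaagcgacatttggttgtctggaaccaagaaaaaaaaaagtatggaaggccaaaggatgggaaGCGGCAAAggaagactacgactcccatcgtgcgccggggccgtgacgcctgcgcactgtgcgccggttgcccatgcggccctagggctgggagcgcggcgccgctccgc
A match describes these letters only, and 41 members with an entry held none. No share of matches was computed for the members that rose, and a part of E2F factors in the changes was not tested.

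Class I deacetylases are nuclear enzymes that work within corepressor complexes such as NuRD, Sin3, CoREST and NCoR. All 4 had both deleted libraries above both intact ones (100%, all genes 26.9%), and 2 passed the test. Hdac1 stood at 181 and 178 CPM in the deleted pair, against 98.4 and 97.8 CPM in the intact pair. It reached 256 and 260 CPM with FOXO3 and 246 CPM with EV. The spread within pairs was small beside the gap between them, and Hdac1 rose by 0.87 ± 0.096 on the log2 scale (edgeR adjusted p = 0.0102). Hdac3, the deacetylase of the NCoR complex, stood at 88.9 and 80.1 CPM against 64.6 and 57.5 CPM. It rose by 0.47 ± 0.11 (edgeR adjusted p = 0.0457). The calls of Hdac1 and Hdac3 were lost with the FOXO3 pair summed. Hdac2, the close relative of Hdac1, stood at 95.2 and 83.2 CPM against 55.3 and 68.2 CPM and just missed the threshold, with 0.53 ± 0.14 (edgeR adjusted p = 0.0567). Hdac8, the X-linked member of the class, stood at 11.7 and 10.2 CPM against 9.84 and 10.1 CPM, with a log2 fold change of 0.14.

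None of the 7 deacetylases outside class I was called. Class IIa enzymes shuttle between nucleus and cytoplasm and have little catalytic activity of their own. Hdac7 stood at 24.2 and 17.8 CPM in the deleted libraries and 33.9 and 24.5 CPM in the intact ones, and Hdac4 at 13.6 and 16.6 CPM against 21.01 and 17.3 CPM. Both had non-overlapping libraries, lower in the deleted pair (all genes 30%), with log2 fold changes of −0.47 and −0.35. Hdac5 ranged more within the deleted pair, 34.0 and 67.9 CPM, than between groups. Hdac9 stood at 4.71 CPM in the first deleted library and between 0.441 and 1.43 CPM in the other 6, so its fold rests on 1 library. Hdac6, the X-linked tubulin deacetylase of class IIb, stood at 18.2 and 19.6 CPM against 13.1 and 15.5 CPM (0.40 ± 0.14, edgeR adjusted p = 0.118).

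Demethylases were the largest class, and 2 of 17 rose. Kdm2b, an H3K36 demethylase whose CxxC domain brings a variant PRC1 complex to CpG islands, stood at 63.7 and 65.8 CPM in the deleted pair, against 35.2 and 30.5 CPM in the intact pair. It stood at 102 and 103 CPM with FOXO3 and at 97.7 CPM with EV. The intact pair was the lowest of the groups, and Kdm2b rose by 0.98 ± 0.11 (edgeR adjusted p = 0.0105). Kdm2b kept that call with the FOXO3 pair summed. Its relative Kdm2a overlapped between the groups, at 92.7 and 84.2 CPM against 107 and 82.0 CPM. Kdm8 stood at 5.92 and 8.23 CPM against 4.56 and 3.77 CPM, with 0.76 ± 0.22 (edgeR adjusted p = 0.0735).

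Of the 6 demethylases of H3K4, the residue that Mll4 methylates, 1 rose. Kdm1a, which works with CoREST, stood at 73.8 and 76.0 CPM in the deleted libraries and 55.9 and 54.6 CPM in the intact ones. It rose by 0.44 ± 0.091 (edgeR adjusted p = 0.0332), the smallest change among the called members. The call was lost with the FOXO3 pair summed. The JmjC enzymes of the Kdm5 family overlapped between groups. Kdm5a stood at 72.9 and 51.7 CPM against 67.6 and 61.4 CPM, and Kdm5b at 69.7 and 43.3 CPM against 62.8 and 48.6 CPM. For Kdm5b the log2 fold change was 0.02 ± 0.25 (edgeR adjusted p = 0.96).

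Kdm5c and Kdm5d are the X- and Y-linked members of that family. Kdm5d followed the sex of the library. It stood at 24.9 and 27.1 CPM in the male libraries of the Mll4 pairs and at 0.0157 and 0.0507 CPM in the female ones. Kdm5c, which is known to escape X inactivation, was higher in the female library of both pairs, at 142 against 101 CPM in the deleted pair and 119 against 101 CPM in the intact pair. The male FOXO3 libraries stood at 114 and 114 CPM, and the autosomal Kdm5a and Kdm5b had ratios of female to male in the deleted pair of 1.41 and 1.61, against 1.40 for Kdm5c. With 1 library per sex and group this was not tested. Neither gene differed with Mll4 loss beyond that spread, with log2 fold changes of 0.15 ± 0.18 for Kdm5c (edgeR adjusted p = 0.618) and −0.15 ± 2.28 for Kdm5d (edgeR adjusted p = 0.971). The 9 called members kept their sign within the female libraries and within the male ones. This was bound to follow, since the deleted and intact libraries of these 9 did not overlap, so it is no separate check on sex. Hdac1 had log2 ratios of 0.89 and 0.85, Kdm1a 0.44 and 0.44, Prmt1 0.82 and 1.25, and Kat6b −0.56 and −0.79 (female, male). Over all 51 tested members, 37 had the same sign in both sexes and 14 did not, among them Kdm5b at 0.52 and −0.54. With the sex of the library as a term, 7 of the 9 calls held and Hdac3 and Kat6b were lost, at edgeR adjusted p-values of 0.068 and 0.0566.

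**Figure D3:**
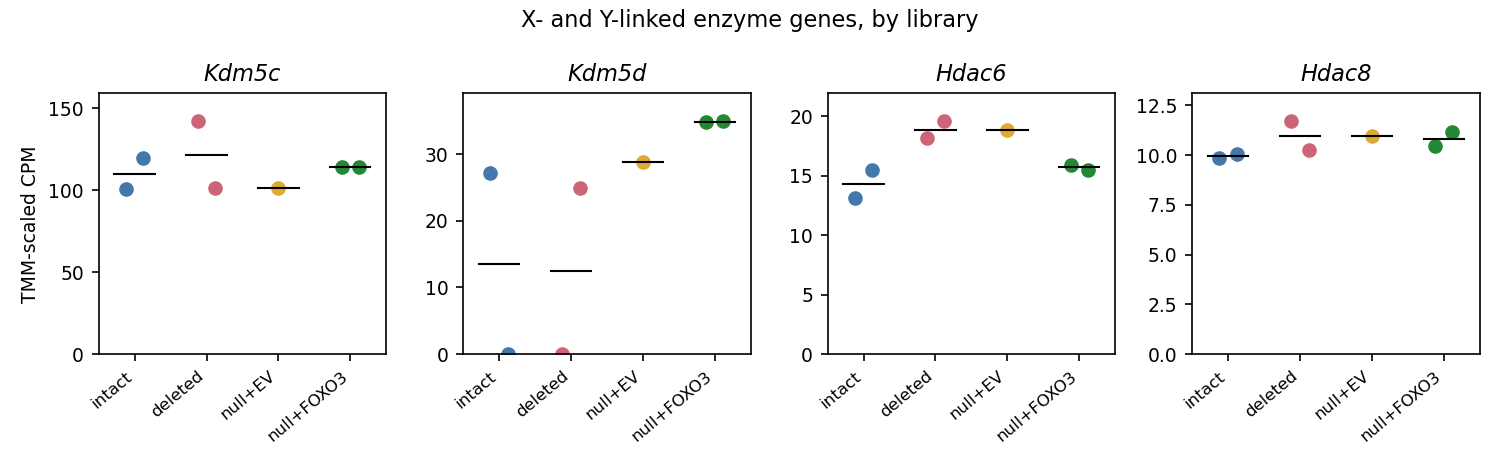
TMM-scaled CPM (vertical axis, from 0) of the Y-linked Kdm5d and the X-linked Kdm5c, Hdac6 and Hdac8 in the 7 MLL-AF9 libraries. Points are libraries and bars are group means. Kdm5d is near 0 in 1 library of each Mll4 pair.

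No demethylase of H3K9 was called, of 7. Their median log2 fold change was −0.39, and 4 of them (57.1%, all genes 30%) had both deleted libraries below both intact ones. Among the 4 was Kdm4d, near the floor at 0.142 and 0.0928 CPM against 0.280 and 0.152 CPM, too few counts to place it. Kdm4a stood at 78.9 and 77.8 CPM in the deleted pair, against 126 and 92.0 CPM in the intact pair, and Kdm4c at 36.3 and 34.4 CPM against 51.1 and 41.9 CPM. Their edgeR adjusted p-values were 0.101 and 0.0958. Kdm3a, an enzyme for mono- and dimethylated H3K9, stood at 50.8 and 47.7 CPM against 50.9 and 46.6 CPM. Kdm6b, an H3K27 demethylase induced in activated macrophages, had the largest negative log2 fold change of all tested members. It stood at 37.7 and 27.1 CPM in the deleted libraries and 74.2 and 49.2 CPM in the intact ones, with −0.93 ± 0.25 (edgeR adjusted p = 0.0612). The libraries did not overlap, but those of a pair differed widely.

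Arginine methyltransferases split in direction. Prmt1 stood at 123.7 and 124.5 CPM in the deleted pair, against 52.2 and 70.3 CPM in the intact pair. It stood higher in the Mll4-null libraries, at 147 and 149 CPM under FOXO3 and 205 CPM under EV. It rose by 1.02 ± 0.16 (edgeR adjusted p = 0.0177), the largest change of a called member. Prmt5, which makes symmetric dimethylarginine, stood at 64.3 and 66.4 CPM against 41.0 and 44.9 CPM and rose by 0.61 ± 0.098 (edgeR adjusted p = 0.0195). The calls of Prmt1 and Prmt5 were lost with the FOXO3 pair summed. Prmt6 stood at 29.2 and 24.6 CPM against 20.7 and 20.2 CPM (edgeR adjusted p = 0.0863). Prmt2 stood lower in the deleted pair, at 14.4 and 13.7 CPM against 19.3 and 20.5 CPM, with −0.50 ± 0.16 (edgeR adjusted p = 0.091).

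One acetyltransferase rose and 1 fell. Kat2a (Gcn5), the acetyltransferase of the SAGA and ATAC complexes, stood at 57.9 and 60.1 CPM in the deleted libraries and 36.4 and 41.6 CPM in the intact ones. It rose by 0.60 ± 0.11 (edgeR adjusted p = 0.0252). Its paralogue Kat2b did not pass, at 27.3 and 20.9 CPM against 27.04 and 25.0 CPM. Kat6b, a MYST acetyltransferase that acts in a complex with Brpf1, stood at 9.46 and 9.71 CPM against 16.8 and 14.0 CPM. It fell by 0.68 ± 0.16 on the log2 scale (edgeR adjusted p = 0.0465). The call did not hold when either deleted or either intact library was left out. Without the first intact library, the calls of Hdac3, Kdm1a, Kat2a and Prmt5 were lost too. With the FOXO3 pair summed, the calls of Kat2a and Kat6b were lost. Kat6a, the MYST enzyme needed for blood stem cells, stood at 46.9 and 47.3 CPM against 64.4 and 51.7 CPM, with −0.30 ± 0.13 (edgeR adjusted p = 0.174).

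None of the 6 SET domain genes was called. Setd2, which trimethylates H3K36, stood at 83.1 and 68.0 CPM in the deleted pair, against 111 and 86.9 CPM in the intact pair, with −0.39 ± 0.16 (edgeR adjusted p = 0.157). Setd5 and Setd7 overlapped between groups, at log2 fold changes of 0.05 and 0.06. Kmt5a, the H4K20 monomethyltransferase once named Setd8 and no member, fell from 256 and 301 CPM in the intact pair to 155 and 178 CPM in the deleted pair. Its log2 fold change was −0.74 ± 0.13 (edgeR adjusted p = 0.024, and 0.108 with the FOXO3 pair summed).

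**Figure D4:**
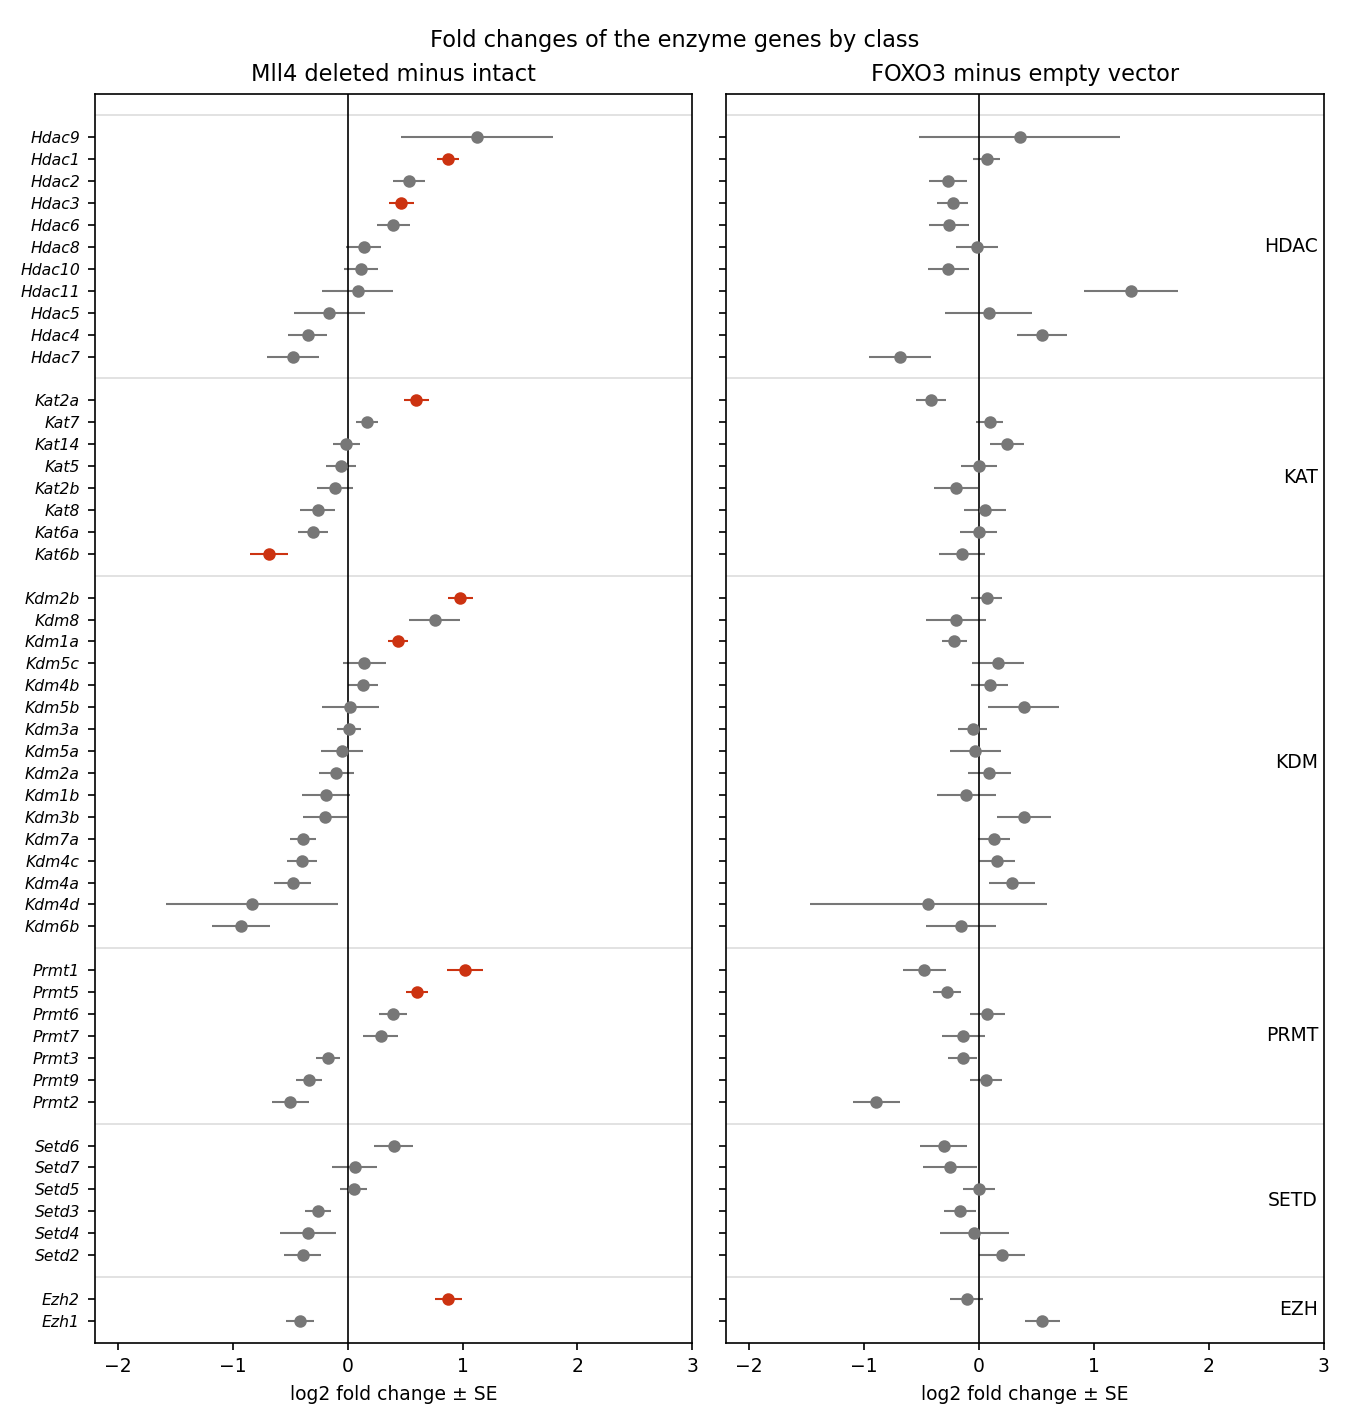
Log2 fold changes (horizontal axis) with SE of 50 members by class, for Mll4 deleted minus intact (left) and FOXO3 minus EV (right). Red points passed the test at an adjusted p of 0.05. All red points are on the left: 8 above 0 and Kat6b below. Prmt8 (not tested) and Kdm5d are left out.

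Partner genes were described from lists of complexes. After Mll4 loss 7.97% of all genes tested rose and 6.94% fell. The lists are short, and no excess over those shares was tested. Of 9 PRC2 partners, 2 rose after Mll4 loss, the histone chaperones Rbbp4 (256 and 240 against 149 and 154 CPM) and Rbbp7 (198 and 214 against 102 and 121 CPM). The list's median was 0.33. Of 20 partners of deacetylases 2 rose, Rcor2 and Mta1, and of 21 partners of acetyltransferases 1 rose, Tada2a, with medians of 0.05 and −0.15. Among 31 other histone-modifying enzymes, 5 rose and 5 fell. Those that rose were Hat1, Suv39h1, Suv39h2, Nsd2 and Kmt5c, and those that fell were Ep300, Sirt2, Nsd3, Kmt5b and Padi4. Suv39h1, which trimethylates H3K9 in heterochromatin, stood at 68.3 and 70.7 CPM in the deleted libraries and 30.8 and 29.5 CPM in the intact ones. It rose by 1.21 ± 0.095 (edgeR adjusted p = 0.0073). Ep300, the acetyltransferase of enhancers, stood at 94.3 and 82.4 CPM against 135 and 127 CPM and fell by 0.56 ± 0.11 (edgeR adjusted p = 0.0311). With the FOXO3 pair summed, 0 of the 5 partner calls and 3 of the 10 other enzyme calls remained.

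Markers of cell state moved with the same groups, in a comparison where 7.97% of all genes tested rose and 6.94% fell. Of 16 cycling genes, 13 rose after Mll4 loss, with a median log2 fold change of 1.32 (11 called with the FOXO3 pair summed). Their summed level was 2936 and 3432 CPM in the deleted pair, 1368 and 1540 CPM in the intact pair and 5151 to 5265 CPM in the Mll4-null libraries. Of 8 myeloid progenitor markers, 6 rose (5 with the pair summed), and their sum was 10390 and 13570 CPM against 2064 and 3186 CPM. Of 11 macrophage markers, 1 fell, the integrin gene Itgax (also with the pair summed), and the sum was 1435 and 2359 CPM against 3082 and 4128 CPM. The low Cx3cr1, C1qa, C1qb and C1qc had log2 fold changes in the other direction, from 1.43 to 2.24, and were not called. Macrophage markers summed to 26.8 to 106 CPM in the Mll4-null libraries, which were also lowest for Prmt2 and Kdm7a and highest for Ezh2, Hdac1 and Prmt1. None of the lymphoid markers was called after Mll4 loss. The 5 B cell markers summed to 0.759 to 9.60 CPM in the MLL-AF9 libraries, nearly all from Cd79b, with Pax5 and Ebf1 at 0. The 6 T and NK cell markers summed to 16.4 to 71.4 CPM, nearly all from Nkg7, with Cd3e at 0. In LSK cells Cd79b stood at 35.5 CPM in the Mll4 deleted library and at 0.752 CPM in the wild type one. The part of these markers in the changes of the enzyme genes was not tested.

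The Mll4-null libraries from the separate transformation were set beside the deleted pair as values only, since transformation, vector and genotype history cannot be told apart. EV was at least 2-fold above the deleted mean for 2 members, Prmt3 and Kdm5d (7.14% of all tested genes). It was at least 2-fold below it for 4, Hdac9, Prmt2, Hdac11 and Kdm7a (19.8%). For Kdm5d the deleted mean includes the female library at 0.0157 CPM, and EV at 28.8 CPM stood near the male one at 24.9 CPM. Prmt2 stood at 3.05 CPM with EV and at 1.81 and 1.48 CPM with FOXO3, against 14.4 and 13.7 CPM in the deleted pair. Prmt2 was thus below the deleted pair in all 3 Mll4-null libraries. Kdm7a, a demethylase of H3K9 and H3K27, stood at 21.4 CPM with EV and at 22.9 and 24.0 CPM with FOXO3, against 56.0 and 48.1 CPM. Prmt3, which methylates a ribosomal protein, stood at 59.8, 54.7 and 53.7 CPM against 27.5 and 25.3 CPM.

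No member passed the test for FOXO3 expression by edgeR, against 7.13% of all tested genes, of which 2.2% rose and 4.93% fell. With the FOXO3 pair summed no member passed either, against 1.19% of all genes (0.213% higher, 0.974% lower). At an unadjusted p under 0.05 there were 7 of 51 members and 3463 of 14997 genes, and with the pair summed 1 member and 2018 of 14990 genes. DESeq2 called 2 members, Ezh1 and Prmt2, and 14.5% of all genes. The median log2 fold change was −0.02 over the members and −0.04 over all genes. Both FOXO3 libraries lay above EV in 23 members (45.1%, all genes 40.8%) and below it in 22 (43.1%, all genes 49.7%). A fit on these 3 libraries alone called 38 of 50 members and 70% of all genes, since its only measure of spread is the near-identical FOXO3 pair.

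The 2 smallest adjusted p-values for FOXO3 belonged to Prmt2 and Ezh1. Prmt2 had a log2 fold change of −0.89 ± 0.20 (edgeR adjusted p = 0.0632), and leaving out either deleted library brought that to 0.0473 and 0.0465. Ezh1 stood at 33.0 and 32.5 CPM with FOXO3 and at 22.3 CPM with EV, a log2 fold change of 0.55 ± 0.15 (edgeR adjusted p = 0.0967). Hdac11, the class IV deacetylase, stood at 1.11 and 1.28 CPM with FOXO3 and at 0.476 CPM with EV (1.32 ± 0.41, edgeR adjusted p = 0.123). Hdac1, Ezh2 and Kdm2b, high in all 3 of these libraries, had log2 fold changes of 0.07, −0.11 and 0.07. Of the 20 deacetylase partners, Rcor2 and Chd3 fell, also with the pair summed, and none rose (all genes 2.2% higher and 4.93% lower). None of the 9 PRC2 partners or the 21 acetyltransferase partners was called. Chd3, a NuRD remodeller, stood at 12.6 and 12.7 CPM against 45.3 CPM (−1.84 ± 0.14, edgeR adjusted p = 0.00309). Among the 31 other enzymes, Smyd3 and Jmjd1c rose and Padi4 fell. All 3 calls were lost with the pair summed, at edgeR adjusted p-values of 0.167, 0.205 and 0.0554. Foxo3 itself rose by 5.53. Markers of other cells moved in the same comparison, in which 4.93% of all genes tested fell. Of 4 tested erythroid markers, 3 fell (summed 2.53 and 2.36 against 55.9 CPM). Of 11 macrophage markers, 4 fell (26.8 and 28 against 106 CPM). With the pair summed, 0 and 2 of these were called. Their part in the values of the enzyme genes was not tested.

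LSK cells had 1 library per genotype, so their values have no replicate check and no test. Each log2 ratio is Mll4 deleted over wild type in plain CPM, with a 95% exact binomial interval that covers counting error only. Of the 45 members that averaged at least 1 CPM, 11 were at least 2-fold higher in the Mll4 deleted library and 22 at least 2-fold lower. Over all genes at that level the shares were 28.1% and 34.9%, so 63% of genes differed by 2-fold or more between these 2 libraries. The median log2 ratio was −0.56 over the members and −0.15 over all genes.

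Many members were abundant in 1 LSK library and nearly missing from the other. Kdm2a had 0 counts in the Mll4 deleted library and 928 in the wild type one, which is at least 301-fold lower against a limit of 3 counts for the library at 0. Kdm4b had 0 and 375 counts, at least 122-fold lower, and Kdm4c, Setd6 and Kdm8 also had 0 counts there. Hdac6 had 1 count against 1022, a log2 ratio of −9.96 (interval −15.3 to −7.48). In the other direction Prmt2 had 2557 counts (98.7 CPM) against 31 (1.17 CPM), a log2 ratio of 6.41 (5.90 to 6.96). Of all genes averaging at least 1 CPM, 781 had no count in the Mll4 deleted library and 85 none in the wild type one. The Y-linked Kdm5d had 80 and 1 counts, while Xist was low in both LSK libraries, at 2.05 and 3.65 CPM, so the sex of these libraries was not settled.

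The called members of MLL-AF9 cells did not share a direction in LSK cells. Hdac1 had 1445 and 1071 counts, a log2 ratio of 0.47 (0.36 to 0.59), and Hdac3 3748 and 2158 counts, 0.84 (0.76 to 0.91). Kat2a stood at 133 against 55.1 CPM, 1.27 (1.18 to 1.36). Ezh2 stood at 8.69 against 30.5 CPM, −1.81 (−2.03 to −1.60), and Ezh1 at 33.7 against 108 CPM, −1.68 (−1.79 to −1.57). Kdm2b, Kdm1a and Prmt5 had log2 ratios of −1.68, −1.46 and −1.23, and Kat6b had 3 counts against 956. Prmt1 had 8 counts in each LSK library. Per kb of exon, Ezh2 stood at 0.287 and 0.314 times Ezh1 (Mll4 deleted, wild type), below each MLL-AF9 library. The LSK markers Flt3 and Cd34 were present in both LSK libraries, and the macrophage markers summed to 7.76 and 4.32 CPM.

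**Figure D5:**
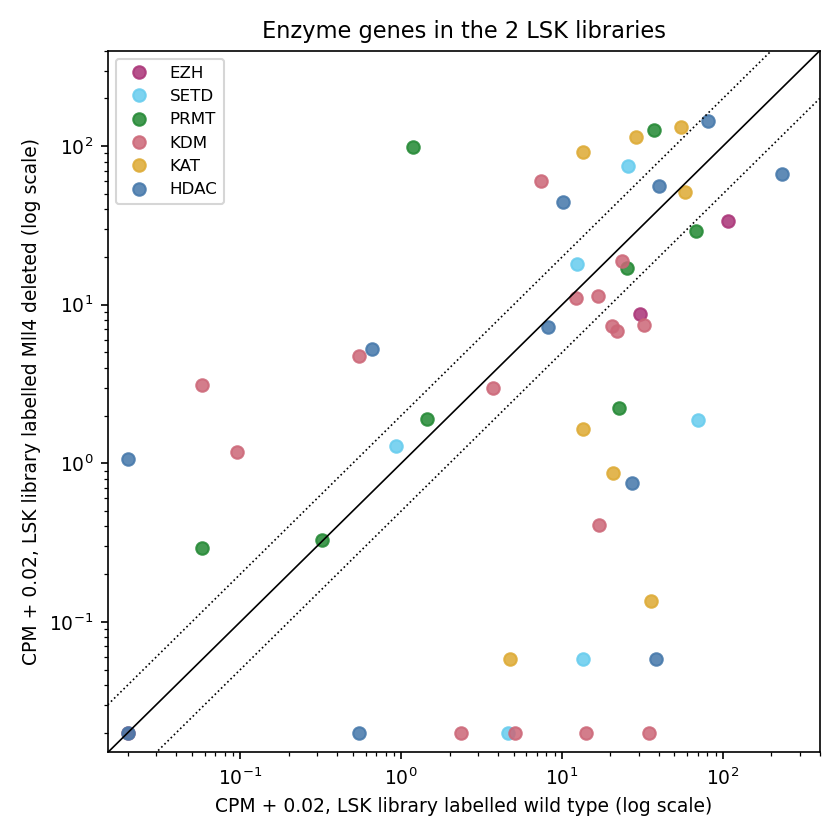
CPM of the 52 members in the wild type (horizontal axis) and Mll4 deleted (vertical axis) LSK libraries, both on log scales after adding 0.02. Points are genes coloured by class, the solid line marks equal levels and dotted lines 2-fold. Several members lie on the lower edge, with 0 counts in the Mll4 deleted library.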

How the data were processed

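RNA-seq counts of 9 libraries were used as deposited: per the file headers and values, the authors gave raw read counts per NCBI gene number. TopHat2 2.0.11, Bowtie 0.12.8 and the build mm9 are named, per the submitters' processing notes. Not given in the sources used here are the counter, its annotation and strand setting, and values of genes that overlap others are uncertain. Names came from the RefSeq table of GRCm38.p6, which matched 23185 of 23282 numbers, and exon lengths from GENCODE M21. The members and lists were chosen with earlier results of these data known.

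Counts of the 7 MLL-AF9 libraries entered 1 fit of edgeR 4.0.16 (R 4.3.3) with 4 groups, TMM factors, the filterByExpr filter and quasi-likelihood F-tests. P-values were adjusted by Benjamini-Hochberg over the 14997 genes tested, with a threshold of 0.05. The lone EV library is assumed to vary like the others. On simulated data the fit gave too many small p-values when the FOXO3 pair was drawn from 1 culture, and not when that pair was summed. Named with full statistics are called members and a fixed set of 16 genes, one of them Setd8, which the name table lists as Kmt5a. Partner genes named because their list held few calls, the promoter letters and the Ezh2 to Ezh1 ratio were chosen after values were seen. Alternatives were RLE and total-count scaling, other expression filters, DESeq2 1.42.0, the FOXO3 pair summed, a replicate block, the sex of the library as a term, only the libraries compared and each library left out in turn.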

Additional observations from a re-analysis of the deposited data

Results flagged for a closer look

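Members that rose after Mll4 loss in MLL-AF9 cells and were lower in the Mll4 deleted LSK library, with the whole counting interval below 0, were Ezh2, Prmt5, Kdm2b and Kdm1a. Their log2 ratios in LSK cells were −1.81, −1.23, −1.68 and −1.46, against log2 fold changes of 0.88, 0.61, 0.98 and 0.44 in MLL-AF9 cells. The difference between the 2 cell types was not tested, since LSK cells had 1 library per genotype, made by another protocol, in which 63% of all genes differed by 2-fold or more.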

How the results depend on the processing

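For Mll4 loss, 9 members were called. The count was 15 with total-count scaling (15 higher, 0 lower), 15 with DESeq2, 1 with the FOXO3 pair summed and 0 with only the compared libraries. With the replicate block it was 18 (11 higher, 7 lower), with 27.9% of all genes called. The block numbers come from file names and do not follow sex; the 2 pairs' deviations correlated at r = 0.24 over 14997 genes, and 2 pairs without a label that ties them do not settle whether the numbers pair the samples. For FOXO3 the EV library has no number, and no block fit could be made. Leaving out 1 library gave 1 to 12 members called for Mll4 loss, with 4 without the first intact library and 1 without either FOXO3 library. The member median of −0.01 became 0.27 with total-count scaling, 0.0611 with the pair summed and 0.0527 with only the compared libraries, and ran from −0.0599 to 0.0735 with 1 library left out. For FOXO3, 0 members were called, against 2 with DESeq2, 38 with only the compared libraries, and 0 to 1 with 1 library left out. Its median of −0.02 ran from −0.0178 to 0.0509 with 1 library left out.

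Of the 9 called members over 16 alternatives, 95 of 144 values kept the call, 49 lost it and 0 changed sign. Kat6b lost it in 12 alternatives, Hdac3 in 8, Kdm1a in 6, and Kat2a and Prmt5 in 5 each. Ezh2, Hdac1 and Prmt1 lost it in 4 each, and Kdm2b in 1. Of the other 8 genes followed through every alternative, 3 changed sign after Mll4 loss. Kdm5b went to −0.00658 with the block and −0.00624 with the sex term, and ran from −0.294 (without the first deleted library) to 0.326 with 1 library left out. Kdm5c ran from −0.0457 to 0.37 with 1 library left out. Kdm5d went to 0.0503 with total-count scaling and ran from −9.54 to 7.84 with 1 library left out. Hdac9, not among these genes, ran from −0.204 to 1.81 with 1 library left out. For FOXO3, Kat6a went to −0.0035 at a mean of at least 5 CPM, and ran from −0.0053 to 0.0517 with 1 library left out. LSK counts of 2-fold members were 33 in all, 33 with TMM factors and 26 at a mean of at least 5 CPM. Depth limits Hdac9, Hdac11, Kdm4d and Prmt8 in MLL-AF9 cells, and in LSK cells every member with few counts; the causes of the other changes were not tested.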
